A study of Mus musculus with 9 samples.

Results

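A set of 6 long noncoding RNAs known as abundant in neurons was looked up by their Ensembl identifiers in hippocampus libraries, and Snhg11 was the 1 of the 6 that could be measured, among 14779 genes of the deposited table. Meg3, Malat1, Miat, Rian and Mirg were not analysed here, so every value on a long noncoding RNA of this set below is one of Snhg11, and nothing is said of the other 5. Polyadenylated RNA was sequenced with a strand-specific kit from the hippocampus of mice in 3 groups of 3 libraries. CIE+IL17 Ab mice were exposed to chronic intermittent ethanol and given an antibody against interleukin 17A, a cytokine of the immune system. CIE+IgG mice were exposed to ethanol in the same way and given IgG, an immunoglobulin used as a control, and Air+IgG mice were kept in air and given IgG, so all 3 groups received an antibody. The labels give neither strain nor age, and the series text gives 3 mice for each group. The 3 CIE+IL17 Ab libraries had the highest Snhg11 of the 9, and Snhg11 rose against Air+IgG in the test across all genes, a call kept in 12 of 19 alternative analyses, while against CIE+IgG it did not pass (edgeR, adjusted p = 0.0666).

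A long noncoding RNA is transcribed and usually spliced and polyadenylated like a messenger RNA, but acts without being translated, or matters for what lies in its introns. Snhg11 is a small nucleolar RNA host gene: small nucleolar RNAs, which guide chemical modification of ribosomal and other RNAs, are cut out of its introns, and the spliced remainder is polyadenylated and can be captured with messenger RNA. Of the genes not analysed here, Meg3, Rian and Mirg are expressed from the maternal chromosome in the imprinted Dlk1-Dio3 domain on chromosome 12, where they host small nucleolar RNAs and microRNAs. Malat1 is a nuclear RNA of splicing speckles, and Miat, also called Gomafu, is a nuclear RNA of neurons.

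Snhg11 (ENSMUSG00000044349) lies on the plus strand of chromosome 2 from 158375638 to 158386145 (GRCm38, GENCODE M21). The annotation lists 5 transcripts, of which 1 is given as protein coding, and gives the gene the biotype protein_coding, while RefSeq lists it as a long noncoding RNA. The annotated exons together cover 8521 bases, and the longest transcript has 5864 bases in 5 exons. No annotated gene on the opposite strand overlaps it. The start region is shown because it is the one promoter of the set whose output could be measured. It covers chr2:158375463-158375762 on the plus strand (RefSeq, GRCm38.p6), with the 50 bases from the RefSeq start at 158375713 in capitals. The GENCODE M21 start at 158375638 lies within the lowercase part, so that part is not all upstream of the annotated gene.
Snhg11 promoter: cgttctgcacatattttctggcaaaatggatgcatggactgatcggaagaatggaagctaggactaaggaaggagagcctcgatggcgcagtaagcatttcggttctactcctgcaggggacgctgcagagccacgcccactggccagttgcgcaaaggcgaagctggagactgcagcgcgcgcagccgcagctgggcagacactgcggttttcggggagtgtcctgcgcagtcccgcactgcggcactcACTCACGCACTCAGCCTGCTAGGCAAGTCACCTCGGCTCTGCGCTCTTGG
This window holds 21 CpG dinucleotides, against a median of 7 in 32851 promoter windows of the same length, of which 75.2% hold fewer. None of 5 short motifs searched on both strands was in it, which says only that these letters are not in this window. TATAAA was present in 13.6% of all windows, CCAAT in 37.4%, GGGCGG in 35.7%, CACGTG in 7.15% and TGACG in 20.8%.

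The annotation places 2 small nucleolar RNA genes of 133 bases each inside Snhg11, on the same strand. Gm25187 lies at chr2:158378222-158378354 and overlaps an annotated exon of a Snhg11 transcript, and Gm25129 lies at chr2:158379534-158379666 and overlaps none. They are shown, from the GENCODE M21 transcripts, because they are the RNAs that the measured transcript hosts. The capitals mark the letters ACA with which both annotated sequences end. The ACA box of H/ACA small nucleolar RNAs lies a few bases before the 3′ end, and 0 bases follow these letters here, so they are not shown to be that box.
Gm25187: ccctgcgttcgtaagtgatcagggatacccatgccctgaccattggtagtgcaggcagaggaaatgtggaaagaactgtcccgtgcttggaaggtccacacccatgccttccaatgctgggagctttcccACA
Gm25129: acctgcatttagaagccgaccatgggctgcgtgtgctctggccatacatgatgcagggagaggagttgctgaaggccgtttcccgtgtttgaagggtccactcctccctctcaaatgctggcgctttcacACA
Libraries of polyadenylated RNA do not measure the small nucleolar RNAs themselves, and the values below are those of the host gene.

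Library totals ranged from 7372658 to 11894628 estimated counts, and 14696 genes were tested. Nothing in the labels says that libraries of a group came from separate dissections, so p-values measure the spread between these libraries. Lars2, a mitochondrial leucyl-tRNA synthetase gene, took 6.71% of the counts in CIE+IL17 Ab replicate 1 and 7.13% in Air+IgG replicate 2, and at most 0.0207% in the others. Levels are given as CPM, counts relative to library size, scaled between libraries by edgeR's TMM method. Of the 19 genes listed as markers of hippocampal pyramidal and granule neurons, 0 were without counts in any library. In bulk tissue, fewer cells of a type and less RNA per cell cannot be told apart.

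Snhg11 was among the most abundant transcripts of the table. Per kilobase of annotated exon, it averaged 136 CPM over the 9 libraries, above 99.1% of the 14545 genes with an annotated length, whose median was 6.00 CPM per kilobase. It ranked between 63 and 93 by this measure in the CIE+IL17 Ab libraries, between 123 and 212 in the CIE+IgG libraries, and between 159 and 255 in the Air+IgG libraries. Of 104 tested genes with an annotated long noncoding biotype, 0 had a higher level per kilobase. The highest of them, Cct6a, annotated as processed_transcript, had 26.4 CPM per kilobase. The biotype is taken from the annotation, and whether each of the 104 is a long noncoding RNA was not checked. Meg3, Malat1, Miat, Rian and Mirg are not among the 104, so Snhg11 is ranked here only among the genes tested. The table consists mostly of protein-coding genes, with 14398 of its 14628 annotated identifiers, and 107 have a long noncoding biotype, which is 1.05% of such genes in the annotation. Snhg11 itself was therefore counted among the protein-coding identifiers. Estimated counts divide reads among transcripts of different length, so a level per kilobase of exon is approximate.

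**Figure D1:**
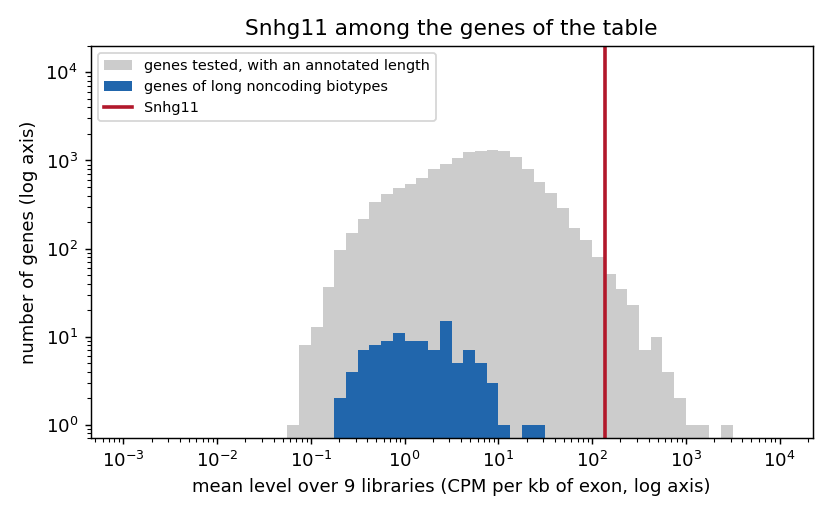
The histogram shows the mean level over 9 libraries in CPM per kilobase of exon (horizontal log axis) against the number of genes (vertical log axis) for all tested genes with a length and for those of long noncoding biotypes, with a line at Snhg11. Snhg11, at 136 CPM per kilobase, stands right of every tested gene of a long noncoding biotype, a set without Meg3, Malat1, Miat, Rian and Mirg.

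The first comparison set the antibody against control IgG within the CIE mice. Snhg11 had 1462, 1726 and 1362 CPM in the 3 CIE+IL17 Ab libraries, against 908, 908 and 1169 CPM in the 3 CIE+IgG libraries. The groups did not overlap, and the lowest antibody library stood above the highest IgG library, CIE+IgG replicate 3. The means were 1516 ± 188 CPM in CIE+IL17 Ab and 995 ± 151 CPM in CIE+IgG (SD, n = 3 each). The log2 fold change was 0.61 with a standard error of 0.15, a ratio of 1.52 with a 95% interval of 1.20 to 1.94. It did not pass the threshold of 0.05 over all genes (edgeR quasi-likelihood test, adjusted p = 0.0666). Of all genes tested, 3.18% passed in this comparison, 1.78% as higher and 1.41% as lower, and 25.9% had groups that did not overlap, so a gap between these groups was common. An unadjusted p under 0.05 was found for 22.3% of genes, and a log2 fold change at least that of Snhg11 for 7.78%. Snhg11 passed when CIE+IL17 Ab replicate 3, the lowest antibody library, was left out (edgeR, adjusted p = 0.0448). It also passed without CIE+IgG replicate 3, the highest of its group (edgeR, adjusted p = 0.043), and in DESeq2 (adjusted p = 0.0042). It did not pass without CIE+IL17 Ab replicate 2 (edgeR, adjusted p = 0.215), or without CIE+IgG replicate 1 or 2 (edgeR, adjusted p = 0.245 and 0.221). Among the alternatives, 4 of 19 passed.

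The combined comparison set ethanol-exposed mice with the antibody against mice kept in air, and it shares the antibody libraries with the comparison above. Snhg11 rose in CIE+IL17 Ab against Air+IgG, where its 3 libraries had 998, 808 and 1077 CPM, a mean of 961 ± 138 CPM (SD, n = 3). The groups did not overlap, which held for 35.3% of all genes tested. The log2 fold change was 0.66 with a standard error of 0.15, a ratio of 1.58 with a 95% interval of 1.24 to 2.01 (edgeR, adjusted p = 0.0285). In this comparison 13.5% of all genes passed, 6.83% as higher and 6.71% as lower. An unadjusted p under 0.05 was found for 32% of genes, and a log2 fold change at least that of Snhg11 for 11.6%. The call depended on single libraries. It was lost without CIE+IL17 Ab replicate 2 (adjusted p = 0.105), and without Air+IgG replicate 1, 2 or 3 (adjusted p = 0.074, 0.0911 and 0.061).

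The remaining comparison asked what ethanol exposure changed in mice given IgG. The CIE+IgG libraries, from 908 to 1169 CPM, overlapped the Air+IgG libraries, from 808 to 1077 CPM, and groups without overlap were found for 9.44% of all genes. The log2 fold change was 0.050 with a standard error of 0.15 (edgeR, adjusted p = 0.9997). The 95% interval of the ratio ran from 0.815 to 1.32, so 3 libraries a group do not tell ratios within that range apart. In edgeR 0% of all genes passed here, with 2.76% at an unadjusted p under 0.05, a log2 fold change at least that of Snhg11 was found for 35.5%, and DESeq2 called 6 genes, Snhg11 not among them. In order of mean level, CIE+IL17 Ab stood first, then CIE+IgG, then Air+IgG, and the last pair did not differ beyond the spread between libraries.

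**Figure D2:**
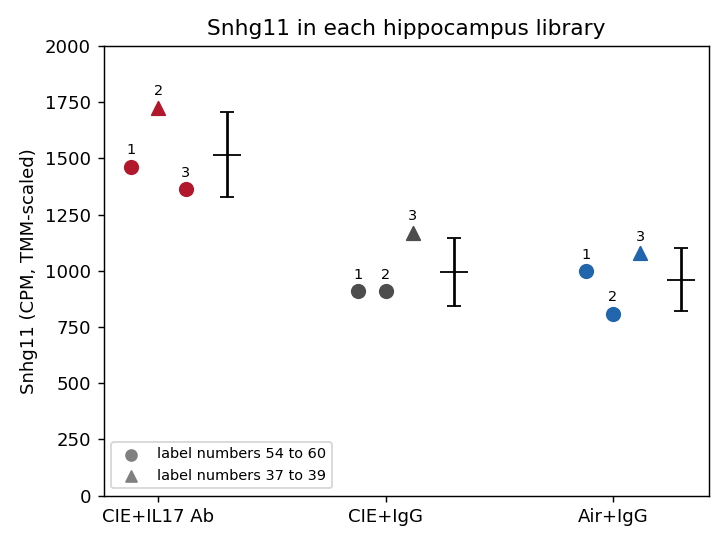
The plot shows Snhg11 in CPM (vertical axis) in each library of the 3 groups (horizontal axis), with the replicate number above each point, the label number range as the symbol, and the mean ± SD of 3 libraries beside them. The CIE+IL17 Ab libraries sit between 1362 and 1726 CPM, and the other 6 between 808 and 1169 CPM.

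The labels carry a number for each library, from 37 to 39 in 3 libraries, 1 in each group, and from 54 to 60 in the other 6, and what it stands for is not given. In every group the library numbered 37 to 39 had the highest Snhg11. Among these libraries Snhg11 had 1726 CPM in CIE+IL17 Ab, 1169 CPM in the CIE+IgG libraries and 1077 CPM in Air+IgG. Within the libraries numbered 54 to 60 it had 1462 and 1362 CPM in CIE+IL17 Ab, against 908 in both CIE+IgG libraries and 998 and 808 CPM in the Air+IgG libraries. The antibody libraries were thus the highest within either range. In the 6 libraries alone the log2 fold changes were 0.63 against CIE+IgG and 0.64 against Air+IgG, and neither passed (edgeR, adjusted p = 0.194 and 0.138). With the number range as a term in the fit both passed, with log2 fold changes of 0.61 and 0.66 and a standard error of 0.10 each (edgeR, adjusted p = 0.021 and 0.0088).

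Markers of thalamus and habenula moved with the same groups. Of 15 genes listed for thalamus and habenula, which adjoin the hippocampus, all 15 were above 0 in CIE+IL17 Ab against CIE+IgG. There 12 passed, and against Air+IgG 14 passed, which is 80% and 93.3% of them beside 3.18% and 13.5% of all genes. Their summed level was 1518, 2889 and 1834 CPM in the CIE+IL17 Ab libraries, against 423, 309 and 707 CPM in the CIE+IgG libraries and 341, 267 and 341 CPM in the Air+IgG libraries. None of these genes was at 0 in all libraries of a group, and 1 gene in CIE+IgG and 1 in Air+IgG were at 0 in at least 1 library. Tcf7l2, a transcription factor of thalamic neurons, had 176, 231 and 126 CPM in CIE+IL17 Ab, against 5.58, 6.55 and 27.0 CPM in the CIE+IgG libraries and 6.39, 6.86 and 5.30 CPM in Air+IgG. CIE+IgG replicate 3 had the highest Snhg11, the highest Tcf7l2 and the highest thalamus and habenula sum of the 6 IgG libraries. CIE+IL17 Ab replicate 2 had the highest of each in its group. Not every library followed this order. Air+IgG replicate 3 had the highest Snhg11 of its group, 1077 CPM, but the lowest Tcf7l2 of the 9 libraries. CIE+IL17 Ab replicate 1 had more Snhg11 than replicate 3, 1462 against 1362 CPM, and more Tcf7l2, but a lower thalamus and habenula sum.

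Genes of hippocampal neurons moved the other way. Of the 19 listed, 18 were below 0 in CIE+IL17 Ab against CIE+IgG and 4 fell. Against Air+IgG all 19 were below 0 and 6 fell. That is 21.1% and 31.6% of the 19, beside 3.18% and 13.5% of all genes that passed. Their summed level was 835, 1343 and 2201 CPM in CIE+IL17 Ab, against 3356, 3392 and 2219 CPM in the CIE+IgG libraries and 2857, 4537 and 2550 CPM in Air+IgG. Fibcd1, a marker of CA1 pyramidal neurons, averaged 31.7 ± 8.28 CPM in CIE+IL17 Ab, against 99.6 ± 29.8 CPM in CIE+IgG mice and 116 ± 11.3 CPM in Air+IgG mice (SD, n = 3 each). Other lists moved too. Of 11 oligodendrocyte genes, all 11 were above 0 in both antibody comparisons, and 10 in CIE+IgG against Air+IgG. In CIE+IL17 Ab 0 of them passed against CIE+IgG and 7 rose against Air+IgG. Of 10 microglia genes, 9 were below 0 in both antibody comparisons, and 2 fell against CIE+IgG and 3 against Air+IgG. Of 10 astrocyte genes, 7 were above 0 in both antibody comparisons, and 1 rose against CIE+IgG and 1 fell against Air+IgG. Against CIE+IgG and Air+IgG, 0% and 63.6% of oligodendrocyte, 20% and 30% of microglia and 10% and 10% of astrocyte genes passed. Of all genes 3.18% and 13.5% passed. None of 11 striatum and 10 choroid plexus genes passed in edgeR in any comparison, but their summed levels spread widely within groups, from 255 to 840.3 CPM in CIE+IL17 Ab and from 253 to 1324 CPM in CIE+IgG for striatum, and from 70.3 to 7213 CPM in CIE+IL17 Ab for choroid plexus. The 1324 CPM were in CIE+IgG replicate 3, which thus stood apart in striatum markers too. All 11 striatum and all 10 choroid plexus genes were above 0 against Air+IgG, both in CIE+IL17 Ab and in CIE+IgG. In CIE+IL17 Ab against CIE+IgG, 9 striatum and 8 choroid plexus genes were below 0. The part of these marker differences in the level of Snhg11 was not tested, and the groups and the marker levels cannot be told apart in this design.

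**Figure D3:**
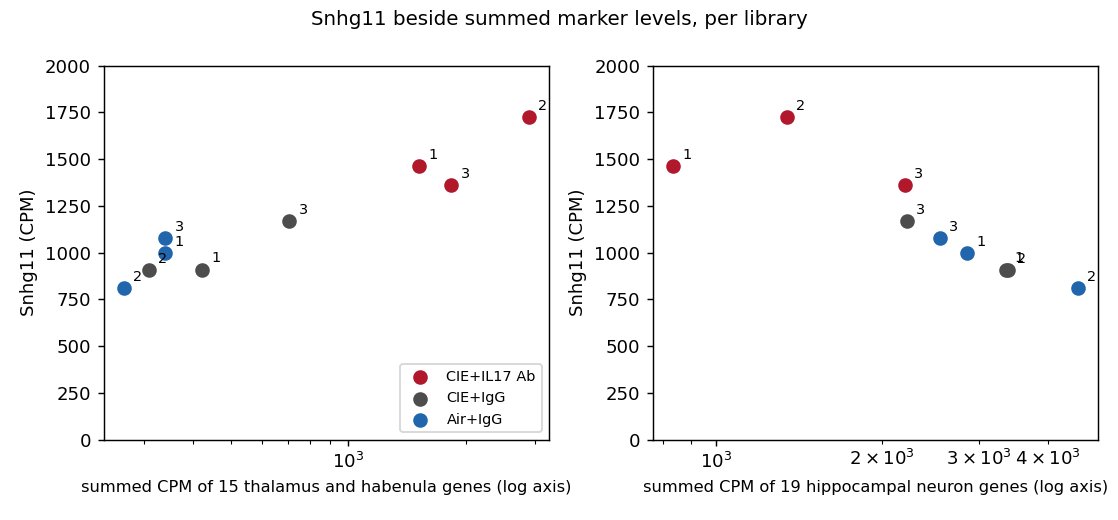
Each point is a library, with Snhg11 in CPM on the vertical axis and, on horizontal log axes, the summed CPM of 15 thalamus and habenula genes (left) and of 19 hippocampal neuron genes (right). The CIE+IL17 Ab libraries lie at 1518 CPM or more on the left and at 2201 CPM or less on the right, and CIE+IgG replicate 3 is the IgG library nearest to them in both panels.

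Genes expressed by neurons in general did not move together in this way. Of 16 listed, 9 were above 0 and 7 below 0 in CIE+IL17 Ab against CIE+IgG, where 1 rose and 0 fell, with a median log2 fold change of 0.085 beside 0.015 over all genes. Against Air+IgG 2 rose and 1 fell, with a median of 0.012 beside 0.012 over all genes. The calls are 6.25% and 18.75% of the 16, beside 3.18% and 13.5% of all genes. In each comparison 6 of the 16 had groups without overlap, beside 25.9% and 35.3% of all genes. Nefh, the heavy neurofilament chain of large axons, averaged 189 ± 81.4 CPM in CIE+IL17 Ab and 69.1 ± 6.60 CPM in CIE+IgG (SD, n = 3 each) and rose (edgeR, adjusted p = 0.0372). Syt1, the calcium sensor of synaptic vesicles, had 697, 1026 and 1145 CPM in CIE+IL17 Ab, against 1577, 1385 and 1620.4 CPM in Air+IgG, and fell by 0.68 on the log2 scale (edgeR, adjusted p = 0.039). The summed level of the 16 genes averaged 7753 ± 695 CPM in CIE+IL17 Ab, against 8384 ± 530.4 CPM in CIE+IgG mice and 8877 ± 404 CPM in Air+IgG mice (SD, n = 3 each). The ratio of Snhg11 to the summed level of these 16 genes does not depend on scaling between libraries. Per 1000 CPM of the sum, Snhg11 had 171, 240.5 and 180.2 CPM in CIE+IL17 Ab, against 106, 103 and 150.2 CPM in the CIE+IgG libraries and 111, 95.9 and 117 CPM in Air+IgG. The antibody libraries were again above all others, by 1.65 times against CIE+IgG and 1.81 times against Air+IgG on the log scale. These ratios are above the 1.52 and 1.58 of Snhg11 itself, and the summed level under them was lowest on average in CIE+IL17 Ab. In an exact two-sided permutation test over libraries p was 0.1 for each, the smallest that 3 against 3 can give.

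The table was searched for genes whose log2 CPM followed that of Snhg11 most closely over the 9 libraries, among 10539 genes with a mean of at least 10 CPM. The 3 with the highest Pearson correlation were Dner, a transmembrane protein of neurons with EGF repeats (r = 0.994), Dpysl5, of the dihydropyrimidinase-like family of axon growth proteins (r = 0.985), and Mettl26 (r = 0.985). They were chosen as the highest of many, and share libraries and groups with Snhg11. Dner had 152, 169 and 142 CPM in CIE+IL17 Ab, against 103, 102 and 122 CPM in the CIE+IgG libraries and 108, 97.6 and 117 CPM in Air+IgG, in the same order of libraries as Snhg11. Dpysl5 spread more widely, with 42.5, 68.9 and 45.2 CPM in CIE+IL17 Ab, against 18.6, 21.2 and 26.8 CPM in the CIE+IgG libraries and 23.1, 15.7 and 25.8 CPM in Air+IgG.

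**Figure D4:**
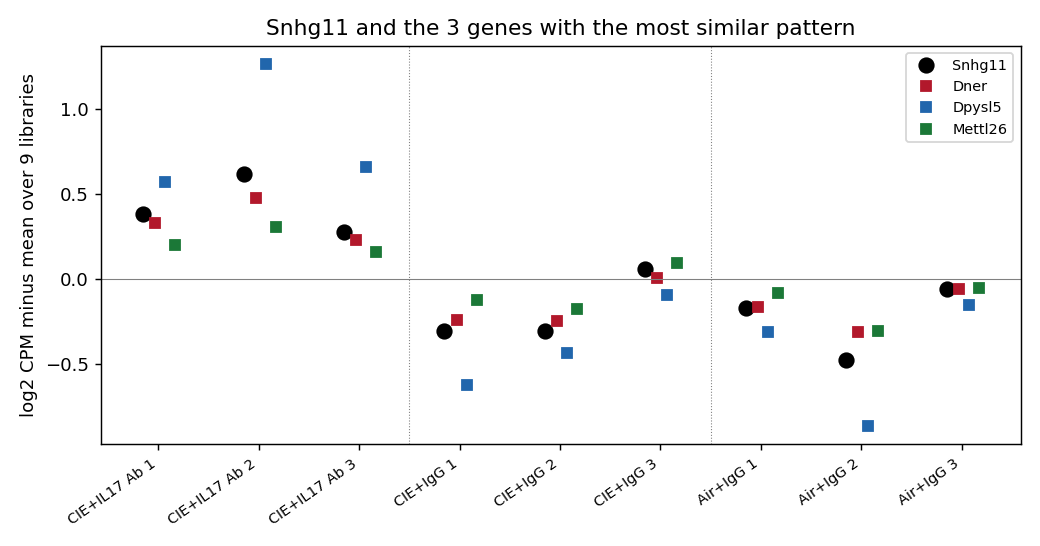
The plot shows log2 CPM minus its mean over 9 libraries (vertical axis) for Snhg11, Dner, Dpysl5 and Mettl26 in each library (horizontal axis), with dotted lines between groups. All 4 genes are above 0 in the 3 CIE+IL17 Ab libraries, and Dpysl5 spreads most.

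The genes beside Snhg11 on chromosome 2 overlapped between groups. Ralgapb, a subunit of a Ral GTPase activating complex, starts 23703 bases beyond the end of Snhg11 and had log2 fold changes of -0.023 in CIE+IL17 Ab against CIE+IgG and -0.061 against Air+IgG, each with a standard error of 0.099. Lbp, the lipopolysaccharide binding protein, ends 42786 bases before Snhg11 and had 4.17, 48.4 and 43.5 CPM in CIE+IL17 Ab, against 31.4, 21.1 and 41.5 CPM in the CIE+IgG libraries and 25.0, 7.13 and 16.7 CPM in the Air+IgG libraries. Its log2 fold change was 0.048 against CIE+IgG, with a standard error of 0.71, and 0.98 against Air+IgG, with a standard error of 0.73, so its interval is wide. Neither passed in any of the 3 comparisons. Of 19 other genes listed as hosts of small nucleolar RNAs, 1 was tested, Zfas1, with 18.5, 17.3 and 17.7 CPM in CIE+IL17 Ab, against a mean of 15.5 ± 0.548 CPM in CIE+IgG mice and of 17.2 ± 1.47 CPM in Air+IgG (SD, n = 3 each). Its log2 fold changes in CIE+IL17 Ab were 0.20 against CIE+IgG and 0.048 against Air+IgG, with a standard error of 0.10 each, and neither passed.

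Of 42 other long noncoding RNAs of brain that were listed, 3 were tested, and 0 passed in any comparison: Zfas1, Lncpint and Mir99ahg. Among the 104 genes of long noncoding biotypes, 1 passed in CIE+IL17 Ab against CIE+IgG, where it fell, and 9 passed against Air+IgG, 7 higher and 2 lower. That is 0.962% and 8.65% of these genes, beside 3.18% and 13.5% of all genes. The gene that fell was A830092H15Rik, with 5.98, 6.10 and 7.17 CPM in CIE+IL17 Ab, against 11.2, 8.66 and 11.2 CPM in CIE+IgG (log2 fold change -0.69, edgeR, adjusted p = 0.0489). None passed between CIE+IgG and Air+IgG.

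The Dlk1-Dio3 domain, which holds Meg3, Rian and Mirg, was read through 7 of its listed genes and neighbours, all protein-coding. In CIE+IL17 Ab against CIE+IgG 0 of 7 passed, beside 3.18% of all genes, and against Air+IgG 1 rose. That is 14.3% of the 7, near the 13.5% of all genes that passed in this comparison. The gene was Rtl1, an imprinted gene derived from a retrotransposon and expressed from the paternal chromosome, on the strand opposite to Meg3, Rian and Mirg. Rtl1 had 74.6, 69.6 and 65.7 CPM in CIE+IL17 Ab, against 45.8, 45.6 and 62.9 CPM in the CIE+IgG libraries and 45.5, 41.3 and 49.2 CPM in Air+IgG. The antibody libraries were above all others, and CIE+IgG replicate 3 was the nearest. The log2 fold change was 0.44 against CIE+IgG, with a standard error of 0.14 (edgeR, adjusted p = 0.104), and 0.62 against Air+IgG (edgeR, adjusted p = 0.0237). Whether the authors' counting used strand is not given in the sources used here, so reads of antisense transcripts at Rtl1 cannot be told apart from its own. Dlk1, a Notch-family ligand at the edge of the domain, spread within groups, with 10.7, 15.3 and 22.5 CPM in CIE+IL17 Ab, against 13.7, 0.936 and 19.9 CPM in the CIE+IgG libraries and 5.20, 0.269 and 6.16 CPM in Air+IgG.

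Other imprinted genes, a list of 28 with 25 tested that also holds Dlk1 and Rtl1, were mostly higher in CIE+IL17 Ab. Against CIE+IgG 23 of 25 were above 0 and 0 passed, beside 3.18% of all genes. The median log2 fold change was 0.35 beside 0.015 over all genes. Against Air+IgG 24 of 25 were above 0 and 4 rose, with a median of 0.53 beside 0.012 over all genes. The 4 are 16% of the list, near the 13.5% of all genes that passed. Without the antibody, in CIE+IgG against Air+IgG, 22 of 25 were above 0 with a median of 0.18 beside -0.0073 over all genes, and 0 passed in edgeR. Peg3, a zinc finger protein expressed from the paternal chromosome, had 1725, 1288 and 1022 CPM in CIE+IL17 Ab, against 722, 646 and 926 CPM in the CIE+IgG libraries and 686, 576 and 759.8 CPM in Air+IgG. Its antibody libraries were above all others, and against Air+IgG it rose (log2 fold change 0.997, edgeR, adjusted p = 0.022). Grb10, an adaptor protein of growth factor receptors, rose by 1.28 on the log2 scale (edgeR, adjusted p = 0.0164).

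Malat1 is a nuclear RNA of splicing speckles, and 25 genes of proteins of speckles and paraspeckles and of related RNA-binding proteins were tested. In CIE+IL17 Ab against CIE+IgG 12 were above 0 and 13 below 0, and against Air+IgG 11 were above 0 and 14 below 0. In edgeR 0 of them passed in each of the 3 comparisons. Beside this, 3.18% of all genes passed in CIE+IL17 Ab against CIE+IgG, 13.5% against Air+IgG, and 0% in CIE+IgG against Air+IgG. Qk, an RNA-binding protein that can bind Miat, averaged 768 ± 118 CPM in CIE+IL17 Ab and 594 ± 14.7 CPM in Air+IgG (SD, n = 3 each), a log2 fold change of 0.37 (edgeR, adjusted p = 0.0696).

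**Figure D5:**
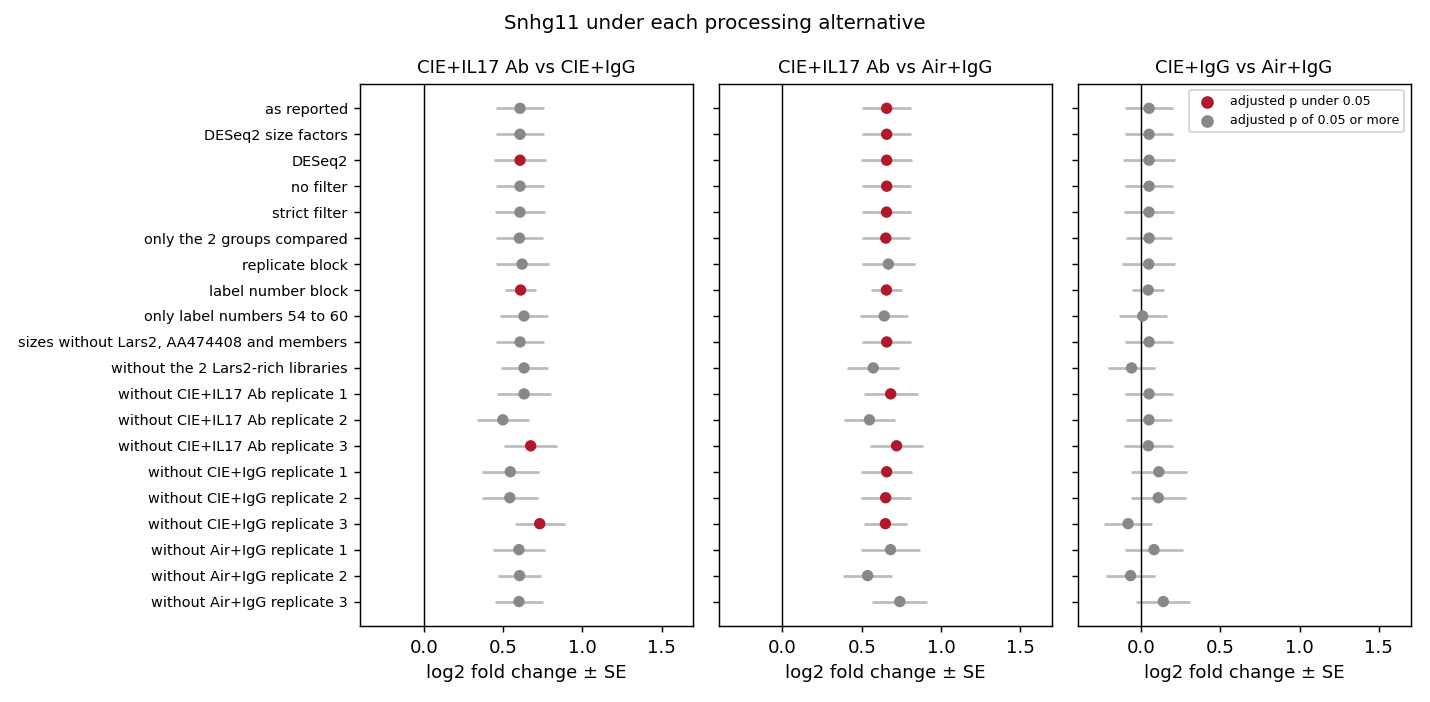
The plot shows the log2 fold change of Snhg11 with its standard error (horizontal axes) as reported and under each of 19 alternatives (vertical axis), in 3 panels for the comparisons. With the antibody every value lies between 0.50 and 0.74, past the threshold in 4 of 19 alternatives against CIE+IgG and in 12 of 19 against Air+IgG.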

How the data were processed

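Hippocampal RNA was measured in 9 libraries, 3 in each of 3 groups taken from the sample titles. The authors deposited expected counts per gene, estimated with RSEM per the submitters' processing notes and not scaled between libraries. The same notes name STAR 2.5.1a, RSEM 1.3.0 and the build GRCm38. For the annotation release, a filter before deposit and the strand setting, the sources used here state nothing. Of the deposited values 27.1% have decimals, since RSEM divides reads shared between genes, and each gene reaches a count of 6 or more in 3 libraries. Symbols and coordinates came from GENCODE M21, which matched 14628 of 14779 identifiers.

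Expected counts were rounded. Genes were kept with filterByExpr by group (minimum count 10, 14696 genes), scaled with TMM and tested with edgeR 4.0.16 in R 4.3.3 (glmQLFit with robust=TRUE, quasi-likelihood F-test) on all 9 libraries, one mean per group, leaving 6 residual degrees of freedom. The Benjamini-Hochberg adjustment ran over all genes, and genes under 0.05 were called. The standard error is the log2 fold change divided by the square root of F, and 95% intervals use the test's degrees of freedom. The script was tested on simulated data. No pair of libraries was a duplicate, with a chi-square per degree of freedom of at least 3.92. Alternatives, fixed with the tests, were DESeq2 size factors, DESeq2 1.42.0, a run without the filter and one requiring CPM above 1 in every library, only the groups compared, replicate or label number as a block, only label numbers 54 to 60, library sizes without Lars2, AA474408 and the set, and leaving out libraries.

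The 6 genes, the lists and the alternatives were chosen with earlier results of these data known. Named genes are the 6, up to 4 called members of a list or the 2 with the smallest p, the neighbours of Snhg11, Lars2, and the 3 genes most like Snhg11; examples given in the text are a part of these, and Tcf7l2, Dlk1, and the other long noncoding RNAs named beside them were chosen after their values were seen. The ratio to pan-neuronal genes and the summary over long noncoding biotypes were added after seeing the data. RefSeq gave the promoter windows.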

Additional observations from a re-analysis of the deposited data

How the results depend on the processing

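With the antibody, Snhg11 stayed above 0 in 19 of 19 alternatives in both comparisons. Its log2 fold change ranged from 0.50 to 0.73 against CIE+IgG and from 0.54 to 0.74 against Air+IgG, with adjusted p from 0.0042 to 0.245 and from 0.000831 to 0.138. Against CIE+IgG it passed, as 1 gene of the set in place of 0, in DESeq2 (0.61) and with the label number block (0.61). Against Air+IgG the call was lost, 0 in place of 1, with the replicate block (0.67, adjusted p = 0.0668), in label numbers 54 to 60 (0.64) and without the 2 Lars2-rich libraries (0.57). With 1 library left out, the number of genes of the set called ran from 0 to 1 in both antibody comparisons (called in 2 of 9 and 5 of 9 fits) and stayed at 0 between CIE+IgG and Air+IgG. There the log2 fold change of 0.050 ran from -0.082 (without CIE+IgG replicate 3) over -0.067 (without Air+IgG replicate 2) to 0.14, and was -0.060 without the 2 Lars2-rich libraries; the cause was not tested.

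The number of genes called over the table moved more. Against CIE+IgG, 468 genes passed, and 1481 in DESeq2, 1 with only the 2 groups, 14 with the replicate block, 776 with the label number block and 1 in label numbers 54 to 60. Against Air+IgG, 1990 passed, and 1192 with only the 2 groups, 571 with the replicate block, 2 in label numbers 54 to 60 and 1067 without the Lars2-rich libraries. With 1 library left out these counts ran from 0 to 1313 and from 0 to 2305. Between CIE+IgG and Air+IgG 0 passed, and 6 in DESeq2. The replicate numbers are not known to pair libraries. Deviations of same-numbered libraries correlated between -0.27 and 0.25, and 3 of 9 libraries correlated best with their own number, so the replicate block is given here only.

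Ratios of Rian and Mirg to Meg3 and the values of the 5 genes not analysed here were not run. With 3 libraries a group, single libraries decide whether Snhg11 passes, while its counts, at least 6010 in each library, leave counting error small beside the spread between libraries.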
